A study of Mus musculus with 14 samples.

Results

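The insulin-like growth factor (IGF) genes examined here are 2 ligands (Igf1, Igf2), 2 receptors (Igf1r, Igf2r) and 6 binding proteins (Igfbp2 to Igfbp7), chosen by gene symbol. They are 10 of the 49315 genes in the count table, and all 10 were among the 15947 genes tested. The comparison is of hearts from 68-week-old mice with hearts from 12-week-old mice. Both groups were wild-type C57BL/6 males kept on standard chow, with no transgene or supplement named for any library, so age is the contrast that the labels give. RNA-seq of total heart RNA gave 4 libraries per age. Separately, CUT&RUN, which cuts out antibody-bound DNA, mapped H3K27me3, the repressive histone mark of PRC2, with 2 libraries and 1 input at each age. The labels number the libraries within an age without stating that each is another animal, so the p-values cover library-to-library spread, which may be technical. Where single hearts are counted below, each stands for 1 RNA library and not for a known separate animal.

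IGF1 and IGF2 are secreted peptides that activate the receptor tyrosine kinase IGF1R, which signals through PI3K-AKT and RAS-MAPK. IGF2R binds IGF2 and carries it to lysosomes without such signalling, and the binding proteins hold the ligands outside cells until proteases release them. In the heart the pathway is known for its part in cardiomyocyte growth and survival, while much of the circulating IGF1 is made by the liver and is not seen in heart RNA.

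The RNA libraries held 28842059 to 34599121 counts at 68 weeks and 23599296 to 31662601 counts at 12 weeks. Heart muscle genes were abundant in every library: the 10 cardiomyocyte markers, which include Myh6 and Actc1, summed to 85300 to 91400 CPM (counts scaled to library size) at 68 weeks and 80200 to 89600 CPM at 12 weeks, with 0 of 10 called. Marker RNA of other cell types was present in unequal amounts. Fibroblast markers summed to 2040 to 2450 CPM at 68 weeks and 2700 to 2910 CPM at 12 weeks (1 of 10 called, Col1a1, lower at 68 weeks), and none was at 0 in any library. Adipocyte markers summed to 377 to 672 CPM at 68 weeks and 889 to 1920 CPM at 12 weeks (6 of 12 lower at 68 weeks), with Elovl3 at 0 in at least 1 library. The airway list came to 31.5, 20.4, 1100 and 28.1 CPM in the older hearts, against 1710, 964, 599 and 63.6 CPM in the younger hearts (replicates 1 to 4), with 0 of 20 called by edgeR and 2 of 20 at an unadjusted p under 0.05. In such bulk samples, fewer cells of a type and less RNA per cell cannot be told apart.

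None of the 10 genes rose or fell with age at an adjusted p under 0.05. The quasi-likelihood test of edgeR called 0 of 10, where 2.83% of all tested genes were called, and DESeq2 also called 0 of 10, where it called 6.28% of all tested genes. At an unadjusted p under 0.05 the edgeR test held 4 of 10 (Igf1r, Igfbp6, Igf1 and Igf2), against 19.0% of all tested genes, and in all 4 the mean was lower at 68 weeks. The libraries of the 2 ages overlapped in all 10 genes, so 0 of 10 had ranges that did not overlap, against 12.1% of all tested genes. The median log2 fold change was -0.16 over the 10 genes and -0.01 over all tested genes. Log2 fold changes are 68 minus 12 weeks throughout, adjusted p-values are Benjamini-Hochberg values over all tested genes, and values of single libraries are given in the order of replicates 1 to 4.

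Igf1, the ligand induced by growth hormone (gene at chr10:87858265-87937042 of mm10, plus strand), measured 27.9, 23.6, 33.2 and 28.8 CPM in the 68-week hearts, against 30.7, 30.9, 42.5 and 35.7 CPM in the 12-week hearts. Of the 4 older hearts, 3 lay below all 4 younger ones, and replicate 3 overlapped them. Means were 28.4 ± 3.95 CPM at 68 weeks and 34.9 ± 5.52 CPM at 12 weeks (SD, n = 4 each). The log2 fold change was -0.30 with a 95% interval of -0.58 to -0.02, which as a ratio is 0.813 (0.671 to 0.986). The edgeR adjusted p was 0.233, and the estimate stayed between -0.41 and -0.19 over 16 alternative settings.

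Igf2, a growth factor expressed from the paternal allele and best known from fetal growth (chr7:142650766-142666816, minus strand), measured 82.7, 59.4, 56.5 and 51.3 CPM in the 68-week hearts. The 12-week hearts held 79.3, 78.0, 66.1 and 94.7 CPM. Replicates 2 to 4 at 68 weeks lay below every 12-week heart, while 68-week replicate 1 lay among the upper 12-week values. Averages of 62.5 ± 13.9 CPM at 68 weeks and 79.5 ± 11.7 CPM at 12 weeks (SD, n = 4 each) gave a log2 fold change of -0.35 (95% interval -0.69 to -0.01; edgeR adjusted p = 0.251). Without 68-week replicate 1 the log2 fold change was -0.51 and the edgeR adjusted p 0.067, the lowest of the fits that left out 1 library. Over those fits the log2 fold change ran from -0.51 to -0.25, and the edgeR adjusted p reached 0.482 without 68-week replicate 4. With the adipocyte marker score in the model the log2 fold change was -0.09, but that score did not overlap between the ages and cannot be told apart from age.

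H19, the noncoding RNA expressed from the maternal allele of the same locus, was looked at for that reason and not by the rule for named genes. It measured 94.0, 50.8, 48.8 and 50.7 CPM at 68 weeks, against 49.2, 45.8, 47.4 and 74.4 CPM at 12 weeks. The log2 fold change was 0.17 ± 0.23 (SE; edgeR adjusted p = 0.737), with 1 high library at each age. The microRNA gene Mir483, which lies inside Igf2, had 0 counts in the 8 libraries.

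**Figure D1:**
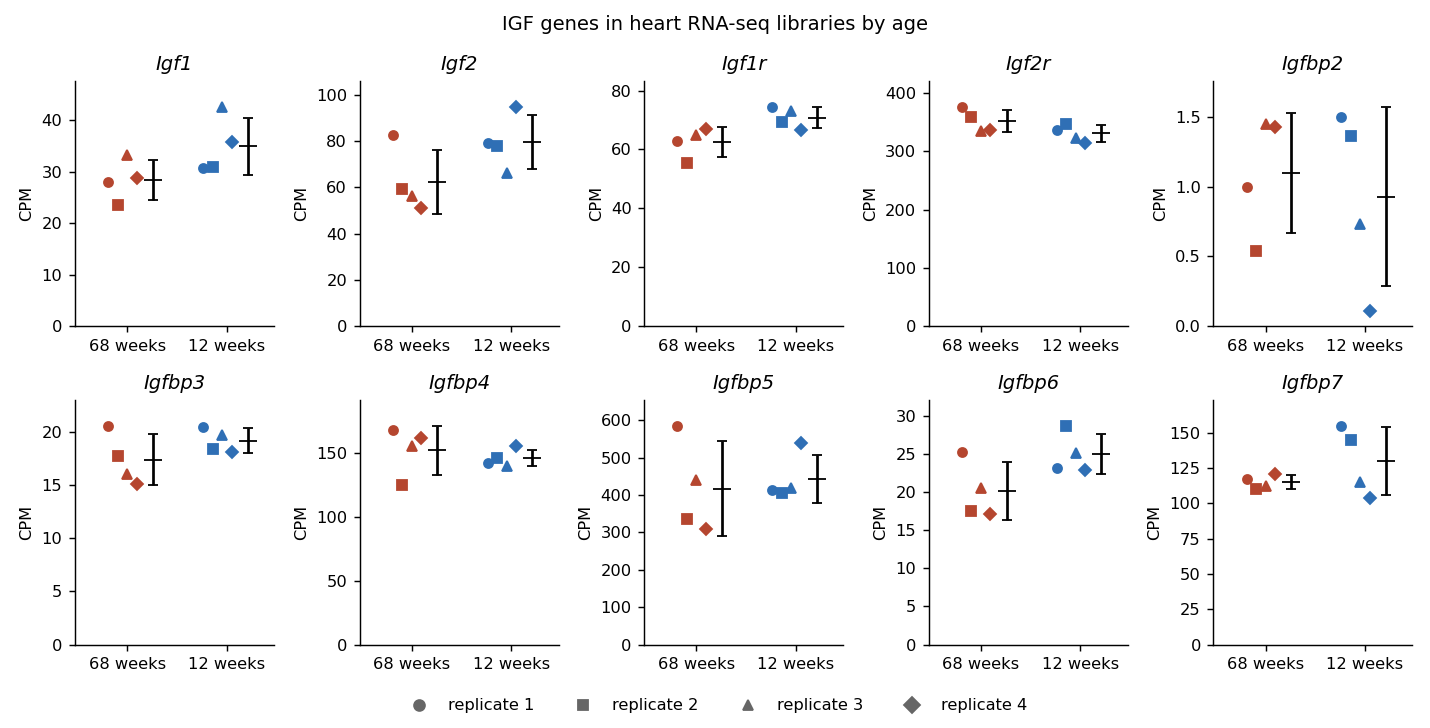
CPM on a linear axis from 0 for each of the 10 IGF genes, with 68-week hearts on the left and 12-week hearts on the right of each panel; marker shapes are replicates 1 to 4, and the black bar is the mean ± SD of 4 libraries. The libraries of the 2 ages overlap in every panel, and the 68-week replicate 1 values of Igf2 (82.7 CPM) and Igfbp5 (585 CPM) stand above the other 3 hearts of that age.

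Igf1r, the signalling receptor (chr7:67952827-68233668, plus strand), was the member with the smallest unadjusted p, 0.0232 in edgeR (adjusted p = 0.186). It measured 62.9, 55.4, 65.0 and 67.1 CPM at 68 weeks, against 74.3, 69.3, 73.0 and 66.6 CPM at 12 weeks. Replicates 1 to 3 at 68 weeks lay below all 12-week hearts, and replicate 4 lay just above the lowest of them. Its log2 fold change was small and narrowly bounded, at -0.18 with a 95% interval of -0.32 to -0.03, from means of 62.6 ± 5.09 CPM at 68 weeks and 70.8 ± 3.54 CPM at 12 weeks (SD, n = 4 each). The summed fibroblast markers were lower in the same hearts (2040 to 2450 CPM at 68 weeks, 2700 to 2910 CPM at 12 weeks), and their part in this difference was not tested.

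Igf2r, the clearing receptor that also sorts mannose 6-phosphate-tagged enzymes to lysosomes (chr17:12682406-12769664, minus strand), measured 376, 360, 336 and 337 CPM in the 68-week hearts. The 12-week hearts held 337, 348, 324 and 314 CPM. Of the 68-week hearts, 2 of 4 lay above every 12-week heart. Means were 352 ± 19.1 CPM at 68 weeks and 331 ± 14.9 CPM at 12 weeks (SD, n = 4 each), the log2 fold change was 0.09 (95% interval -0.04 to 0.21), and the edgeR adjusted p was 0.423. The antisense RNA Airn overlaps the gene, and without knowledge of strand in the counting its reads and those of Igf2r cannot be told apart. Airn averaged 6.88 ± 0.861 CPM at 68 weeks and 7.44 ± 1.68 CPM at 12 weeks, a small fraction of the Igf2r value. That value does not measure how many Airn reads were counted for Igf2r, because the handling of strand is unknown.

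Per kilobase, Igf2r RNA exceeded Igf1r RNA in all libraries. The ratio of their RPKM values (CPM per kilobase of exonic length) was 10.6, 11.5, 9.21 and 8.93 at 68 weeks and 8.06, 8.95, 7.9 and 8.39 at 12 weeks. Replicate 4 at 68 weeks fell short of the highest 12-week ratio, so the ages overlapped. The mean ratio was 10.1 ± 1.23 at 68 weeks and 8.33 ± 0.462 at 12 weeks (SD, n = 4 each), given as a description with no test. The insulin receptor gene Insr, whose protein forms hybrids with IGF1R, averaged 294 ± 18.8 CPM at 68 weeks and 274 ± 13.1 CPM at 12 weeks (log2 fold change 0.10 ± 0.06 SE; edgeR adjusted p = 0.39).

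Among the binding proteins, Igfbp6, which binds IGF2 in preference to IGF1 (chr15:102144362-102149511, plus strand), came nearest to the threshold. It measured 25.3, 17.5, 20.5 and 17.1 CPM at 68 weeks, against 23.2, 28.7, 25.1 and 22.9 CPM at 12 weeks. Again 3 of the 4 older hearts lay below all younger hearts and replicate 1 did not. The means of 20.1 ± 3.79 CPM at 68 weeks and 25.0 ± 2.64 CPM at 12 weeks (SD, n = 4 each) gave a log2 fold change of -0.32 (95% interval -0.60 to -0.03; edgeR adjusted p = 0.221). The edgeR adjusted p was 0.068 without 68-week replicate 1, the lowest of the fits that left out 1 library. Over those fits the log2 fold change ran from -0.45 to -0.24, and the edgeR adjusted p reached 0.433 without 68-week replicate 4.

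Igfbp3, the main carrier of IGFs in serum (chr11:7206086-7213923, minus strand), measured 20.6, 17.8, 16.1 and 15.1 CPM at 68 weeks and 20.5, 18.4, 19.7 and 18.1 CPM at 12 weeks. Of the 4 older hearts, 3 lay below all younger ones. Replicate 1 lay just above the highest of them, so the 2 ages overlapped. Its log2 fold change was -0.14 (95% interval -0.35 to 0.08; edgeR adjusted p = 0.465).

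Igfbp4, whose protein is cleaved by the pappalysin PAPP-A to release IGF (chr11:99041244-99054392, plus strand), measured 168, 125, 155 and 162 CPM at 68 weeks, against 142, 146, 140 and 155 CPM at 12 weeks. The 68-week values spanned the 12-week range on both sides. With a log2 fold change of 0.06 (95% interval -0.13 to 0.26, edgeR adjusted p = 0.739), it had no settled direction. It was -0.043 with adipocyte markers in the model, whose score did not overlap between the ages.

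Igfbp5, a binding protein that also attaches to extracellular matrix (chr1:72857932-72874884, minus strand), varied widely between hearts, above all at 68 weeks. Its 68-week hearts measured 585, 335, 441 and 308 CPM, and its 12-week hearts 412, 405, 418 and 538 CPM. The coefficient of variation was 30.1% at 68 weeks and 14.4% at 12 weeks, and the highest value of each age was a single library, 68-week replicate 1 and 12-week replicate 4. The log2 fold change of -0.09 had a 95% interval from -0.51 to 0.34 (edgeR adjusted p = 0.842), and it was 0.0052 without 68-week replicate 2, 0.036 without 68-week replicate 4 and 0.020 without 12-week replicate 4.

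Igfbp7, a family member of low IGF affinity that is abundant in vessels (chr5:77349240-77408041, minus strand), showed the opposite spread. It measured 117, 110, 112 and 121 CPM at 68 weeks, against 155, 145, 115 and 104 CPM at 12 weeks. The coefficient of variation was 4.37% at 68 weeks and 18.5% at 12 weeks, where replicates 1 and 2 were high and replicates 3 and 4 lay near the older hearts. The log2 fold change was -0.17 (95% interval -0.43 to 0.09; edgeR adjusted p = 0.452). It was -0.075 without 12-week replicate 1 and -0.26 without 12-week replicate 4. Its 3' end overlaps that of Polr2b on the other strand, so reads there are uncertain.

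Igfbp2, a binding protein with an integrin-binding motif (chr1:72824503-72852474, plus strand), lies next to Igfbp5 and was nearly silent. It had 30, 15, 45 and 48 counts at 68 weeks and 51, 38, 17 and 3 counts at 12 weeks. The lowest and the highest library were both 12-week hearts. At this depth the log2 fold change of 0.24 had a 95% interval from -1.03 to 1.51 (edgeR adjusted p = 0.855), the widest of the members. It was -0.13 without 12-week replicate 4 and 1.17 with airway markers in the model. In the 4 libraries with few airway transcripts it was 3.16, where 12-week replicate 4, with its 3 counts, was the only 12-week library. Igfbp1, the binding protein known from liver, had 0 counts in the 8 libraries.

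**Figure D2:**
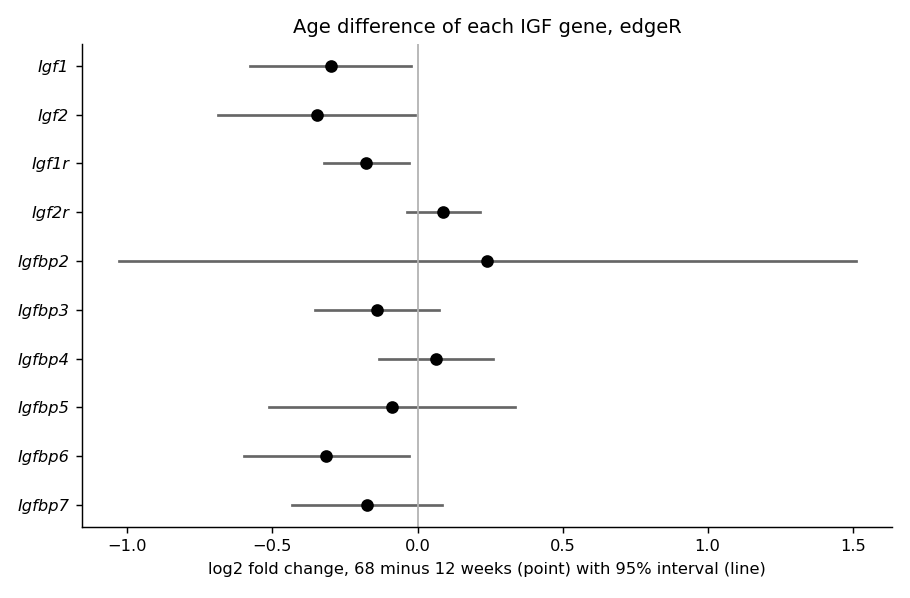
Log2 fold change of each IGF gene, 68 minus 12 weeks (horizontal axis), as a point with its 95% interval from the edgeR quasi-likelihood fit (n = 4 per age); the vertical line marks 0. The intervals of Igf1, Igf2, Igf1r and Igfbp6 lie below 0 before adjustment for multiple testing, the narrowest is that of Igf2r (-0.04 to 0.21), and the widest is that of Igfbp2 (-1.03 to 1.51).

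The levels of the 10 genes could be ordered once counts were divided by exonic length. Igfbp7 led with a mean of 101 RPKM over the 8 libraries (86.0 to 128), at the 97.5th percentile of all tested genes. Igfbp5 was next at 71.6 RPKM (51.2 to 97.4). The ranges of these 2 overlapped, and Igfbp7 was higher in 6 of 8 libraries. Igf2r at 36.2 RPKM (33.3 to 39.8) and Igfbp4 at 33.8 RPKM (28.2 to 38.0) formed a second pair with overlapping ranges, Igf2r being higher in 6 of 8 libraries.

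Igfbp6 followed at 20.3 RPKM (15.4 to 25.8) and Igf2 at 12.4 RPKM (8.96 to 16.5). Their ranges overlapped, yet Igfbp6 was higher within each of the 8 libraries. Igfbp3 averaged 5.85 RPKM (4.84 to 6.58). Igf1r averaged 3.97 RPKM (3.3 to 4.43) and Igf1 3.2 RPKM (2.38 to 4.29), both near the middle of all tested genes at the 54.9th and 50.3rd percentiles, with Igf1r higher in 8 of 8 libraries. Igfbp2 came last at 0.549 RPKM (0.0586 to 0.813). This order holds per length. By CPM, which does not allow for length, Igfbp5 ranked 1, Igf2r 2 and Igfbp7 4.

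**Figure D3:**
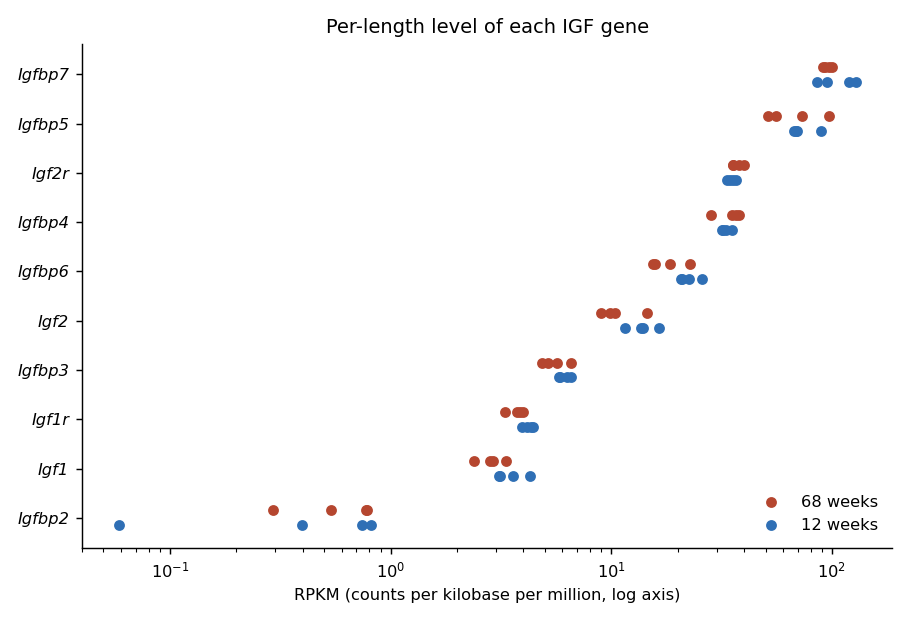
Per-length level of each IGF gene in RPKM on a log axis, with 1 point per library, the 68-week hearts drawn above the 12-week hearts for each gene. Means run from 101 RPKM for Igfbp7 to 0.549 RPKM for Igfbp2, and the ages overlap within every gene.

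The ligand with the higher RNA level in the adult heart was Igf2. The ratio of Igf2 to Igf1 in RPKM was 5.13, 4.36, 2.95 and 3.08 at 68 weeks and 4.46, 4.36, 2.69 and 4.59 at 12 weeks. Both ages ran over the same range, with means of 3.88 ± 1.05 at 68 weeks and 4.03 ± 0.896 at 12 weeks (SD, n = 4 each). Summed over both ligands, the level was 17.3, 12.8, 13.2 and 11.9 RPKM at 68 weeks and 17.0, 16.7, 15.8 and 20.1 RPKM at 12 weeks.

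Igfbp7 and Igfbp5 together made up most of the binding protein RNA at both ages. Of the summed RPKM of the 6 binding protein genes, Igfbp7 held 43.1 ± 5.03% at 68 weeks and 43.9 ± 6.00% at 12 weeks. Igfbp5 held 30.6 ± 5.46% at 68 weeks and 30.5 ± 5.23% at 12 weeks (SD, n = 4 each). Within single libraries the Igfbp5 share ran from 24.5 to 37.8%.

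The minor shares were close at the 2 ages too. Igfbp4 held 15.5 ± 1.48% at 68 weeks and 13.6 ± 1.01% at 12 weeks, and Igfbp6 8.04 ± 0.556% at 68 weeks and 9.26 ± 1.01% at 12 weeks. Igfbp3 held 2.5 ± 0.283% at 68 weeks and 2.52 ± 0.198% at 12 weeks, and Igfbp2 0.268 ± 0.108% at 68 weeks and 0.202 ± 0.133% at 12 weeks.

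Ligand RNA was a small fraction of binding protein RNA. The ratio of summed ligand RPKM to summed binding protein RPKM was 0.066, 0.0649, 0.0587 and 0.0567 in the 68-week hearts, against 0.0659, 0.0663, 0.0701 and 0.0849 in the 12-week hearts. Of the 68-week hearts, replicate 1 alone lay above the lowest 12-week heart. The means were 0.0615 ± 0.00456 at 68 weeks and 0.0718 ± 0.00895 at 12 weeks (SD, n = 4 each), and no test was made of this ratio over chosen genes. In CPM, without length, the same ratio was 0.121, 0.137, 0.12 and 0.128 at 68 weeks and 0.146, 0.146, 0.151 and 0.155 at 12 weeks, and there the ages did not overlap.

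**Figure D4:**
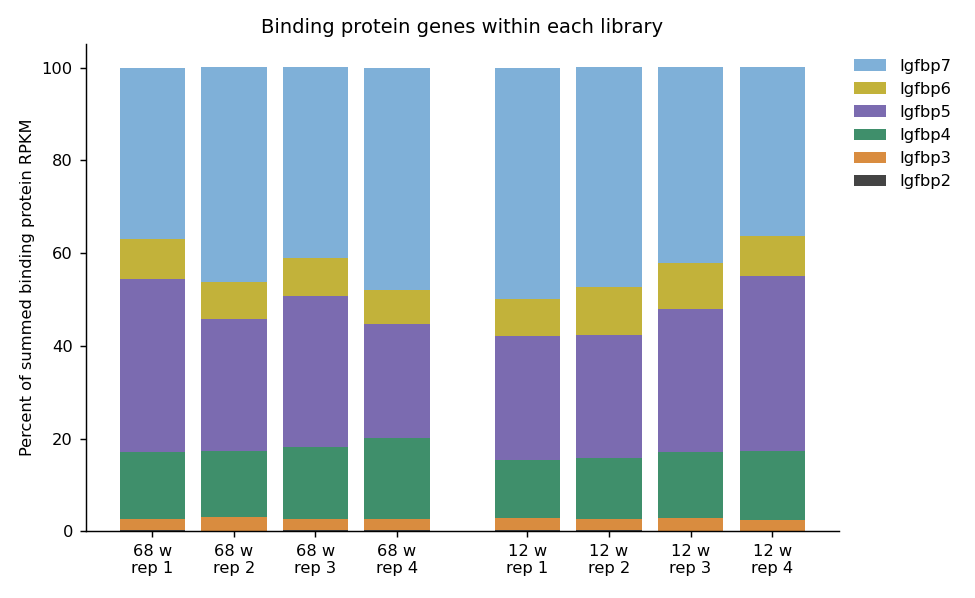
Share of each binding protein gene in the summed binding protein RPKM (percent, axis from 0) in each library, with 68-week hearts on the left and 12-week hearts on the right. Igfbp7 and Igfbp5 are the largest segments of every bar, and the Igfbp5 segment varies from 24.5 to 37.8% between libraries.

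The genes whose pattern over the 8 libraries was most like that of Igf1r were Arsi (Pearson r = 0.973), Sema4a (r = 0.972) and Clic1 (r = 0.971), the highest 3 among 13966 tested genes with a symbol. For Igfbp6 they were Cdk5rap3 (r = 0.962), Sephs1 (r = 0.946) and Calcb (r = 0.939). These values describe likeness over 8 libraries that share the 2 ages, and carry no test.

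The 68-week list of H3K27me3 regions linked 1 of the 10 genes, Igf2, to a region, and the 12-week list linked 0 of 10. For comparison, 3.46% of all tested genes were linked in the 68-week list and 1.44% in the 12-week list, and 1 link among 10 genes is too few to read against those shares. The region is given as chr7:142209182-142209470, is 289 bases wide, and was linked by the authors to 1 other gene as well. The authors' score for it was 5.05, at the 58.7th percentile of the 3433 regions of that list, whose median score was 4.77. The lists hold regions named as unique to 1 age, and their scores are not split by library, which leaves them without a replicate error. Igf2 RNA in the same age group was that described above, with overlapping ages and no call.

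The build of the region coordinates was not established. On the printed coordinates the centre of the region lay 449 kb from the centre of Igf2 as the count table places it. That list held 33 links beyond 130 Mb of chromosome 7, to 10 genes. Over these links the median of gene centre minus region centre was 440.0 kb (quartiles 417 and 515 kb). On the printed coordinates the region overlapped the span of its linked gene in 17 of the 33 links. With the build not established, such overlap or its absence does not show whether a region lies on its gene. Because the build was not established, whether the region lies inside Igf2 was not determined.

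Igf2 is transcribed from several promoters, and because it was the member with a linked region, the sequences before its starts are shown at the extremes of their CpG content. They come from RefSeq (GRCm38.p6), where the 10 genes matched 14 transcription starts and Igf2 had 4. Each window is the 250 bases before a start on the minus strand of chromosome 7, written 5' to 3', with CpG dinucleotides in capitals. The first (chr7:142658805-142659054) has 22 CpG and the second (chr7:142666817-142667066), before the most upstream start, has 1.
Igf2 start with 22 CpG: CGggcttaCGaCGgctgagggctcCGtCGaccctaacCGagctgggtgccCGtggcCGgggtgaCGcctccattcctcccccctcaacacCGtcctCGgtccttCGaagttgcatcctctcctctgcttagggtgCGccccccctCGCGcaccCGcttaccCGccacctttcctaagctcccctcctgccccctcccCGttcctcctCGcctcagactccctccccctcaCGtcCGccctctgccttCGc
Igf2 start with 1 CpG: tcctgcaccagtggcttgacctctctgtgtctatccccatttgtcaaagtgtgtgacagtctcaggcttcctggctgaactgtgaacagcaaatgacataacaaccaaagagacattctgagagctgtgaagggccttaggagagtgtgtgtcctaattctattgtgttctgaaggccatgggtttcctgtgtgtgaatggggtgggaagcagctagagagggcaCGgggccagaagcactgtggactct
The other 2 Igf2 windows held 6 and 10 CpG. Over all 32851 promoter windows of this length the median was 6 CpG (quartiles 2 and 16), so the 4 Igf2 starts ran from the 7.9th to the 85.2nd percentile. CpG-rich promoters are the usual sites of PRC2 in mammals, which is background to these counts and not a result.

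The other members differed as widely in this feature. The Igf1r promoter held 42 CpG, more than 99.1% of all promoter windows, Igfbp3 held 32, Igf2r 27 and Igfbp7 26, while Igf1 held 5. A GC box, searched as GGGCGG on either strand, was found in 6 of the 14 windows and in 32.7% of all promoter windows. TATAAA on either strand was found in 2 of the 14 windows and in 12.4% of all. None of these other 9 genes was linked to a region at either age.

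Around the 10 genes, 8 lists of related genes held 108 genes, of which 99 were tested. Of these 99, 1 rose and 3 fell with age, against 1.61% of all tested genes higher and 1.22% lower. Their median log2 fold change was 0.0016. At an unadjusted p under 0.05 the edgeR test held 24 of 99, against 19.0% of all tested genes.

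In the insulin receptor family and its adaptors, 0 rose and 2 fell of 11 tested. Irs1, the docking protein that couples IGF1R and the insulin receptor to PI3K, measured 41.7, 44.3, 49.8 and 56.3 CPM at 68 weeks, against 64.4, 72.1, 83.9 and 66.3 CPM at 12 weeks. The log2 fold change was -0.58 ± 0.11 (SE, edgeR adjusted p = 0.0293). The ages did not overlap (12.1% of all tested genes did the same). Of all genes called in the table, 0 had overlapping ages, so this adds no support to this call or to those below. The call was kept in 4 of 8 fits that left out 1 library. The adjusted p was 0.0628 without 68-week replicate 1, 0.0801 without 68-week replicate 2, 0.0677 without 12-week replicate 2 and 0.0587 without 12-week replicate 3.

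Sh2b2, an adaptor of the insulin receptor, measured 1.29, 2.09, 2.29 and 1.34 CPM at 68 weeks, against 6.51, 2.94, 3.31 and 7.58 CPM at 12 weeks. Every older heart lay below every younger one. The log2 fold change was -1.55 ± 0.34 (SE; edgeR adjusted p = 0.046). It was called in 1 of 8 fits that left out 1 library (adjusted p from 0.0417 to 0.132). Adipocyte markers were lower at 68 weeks without overlap as well. With their score in the model the Sh2b2 log2 fold change was -0.23 and the gene was not called. Since that score splits the ages fully, its part and that of age cannot be told apart.

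In the core of PI3K, AKT, mTOR and FOXO, 0 rose and 1 fell of 30 tested. The gene that fell was Foxo1, a transcription factor that AKT excludes from the nucleus, at 39.3, 36.6, 37.7 and 35.2 CPM in 68-week hearts, against 45.8, 42.2, 45.4 and 42.2 CPM in 12-week hearts. The ages did not overlap, and the log2 fold change was -0.24 ± 0.05 (SE; edgeR adjusted p = 0.0427). Foxo6, of the same family, averaged 5.06 ± 0.79 CPM at 68 weeks and 7.35 ± 1.01 CPM at 12 weeks (edgeR adjusted p = 0.0691). It was the only gene of the 8 lists linked to a region of the 12-week H3K27me3 list, with 2 regions.

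Among the proteases of IGF binding proteins and their inhibitors, 1 rose and 0 fell of 12 tested. Adamts1, a secreted metalloprotease of the extracellular matrix, measured 80.7, 80.8, 80.0 and 101 CPM at 68 weeks, against 57.5, 63.6, 68.4 and 68.7 CPM at 12 weeks. All older hearts exceeded all younger ones, with a log2 fold change of 0.41 ± 0.09 (SE; edgeR adjusted p = 0.0455). The calls of Foxo1 and Adamts1 were lost in each of the 8 fits that left out 1 library (adjusted p from 0.0525 to 0.114 for Foxo1 and from 0.0542 to 0.102 for Adamts1). With airway markers in the model none of the 4 genes was called, though the log2 fold changes of Irs1 (-0.54, adjusted p = 0.156), Sh2b2 (-1.58, adjusted p = 0.15), Foxo1 (-0.20, adjusted p = 0.251) and Adamts1 (0.31, adjusted p = 0.251) kept their direction. With adipocyte markers in the model none was called either, at log2 fold changes of -0.85 for Irs1, -0.23 for Sh2b2, -0.17 for Foxo1 and 0.16 for Adamts1. That marker score was at most -0.153 at 68 weeks and at least 0.262 at 12 weeks. Because it splits the ages fully, its part and that of age cannot be told apart in this fit.

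The other 5 lists held no called gene. In the RAS-MAPK core, 0 of 16 passed in edgeR and 4 of 16 had an unadjusted p under 0.05. Sos2, a RAS exchange factor, had a log2 fold change of 0.21 ± 0.05 (SE; edgeR adjusted p = 0.0673). In the growth hormone axis, 0 of 8 passed and 2 of 8 had an unadjusted p under 0.05. Cish, an inhibitor induced by STAT5, averaged 73.8 ± 4.79 CPM at 68 weeks and 111 ± 27.6 CPM at 12 weeks (log2 fold change -0.59 ± 0.17 SE; edgeR adjusted p = 0.0969). Stat5a, which carries the growth hormone signal, had a log2 fold change of -0.20 ± 0.07 (SE; edgeR adjusted p = 0.166).

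Among other IGF carriers and genes with the binding protein domain, 0 of 10 passed in edgeR and 1 of 10 had an unadjusted p under 0.05. Ccn2, a matricellular protein gene, averaged 129 ± 40.2 CPM at 68 weeks and 82.5 ± 8.18 CPM at 12 weeks (log2 fold change 0.64 ± 0.19 SE; edgeR adjusted p = 0.107), and Igfbpl1 had a log2 fold change of -0.69 ± 0.39 (SE; adjusted p = 0.367). Of the regulators of the Igf2 locus and mRNA, 0 of 6 passed in edgeR and 0 of 6 had an unadjusted p under 0.05, with Plagl1, a zinc finger activator of the locus, at -0.30 ± 0.17 (SE; edgeR adjusted p = 0.372) and Igf2bp2, an mRNA-binding protein gene, at -0.28 ± 0.19 (SE; adjusted p = 0.466). The mannose 6-phosphate list had 0 of 6 in both counts, with Plaur at 0.17 ± 0.16 (SE; edgeR adjusted p = 0.602) and Gnptg at 0.06 ± 0.09 (SE; adjusted p = 0.779). By DESeq2, 4 of the 99 genes were higher and 6 lower, against 3.48% of all tested genes higher and 2.80% lower by the same test.

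**Figure D5:**
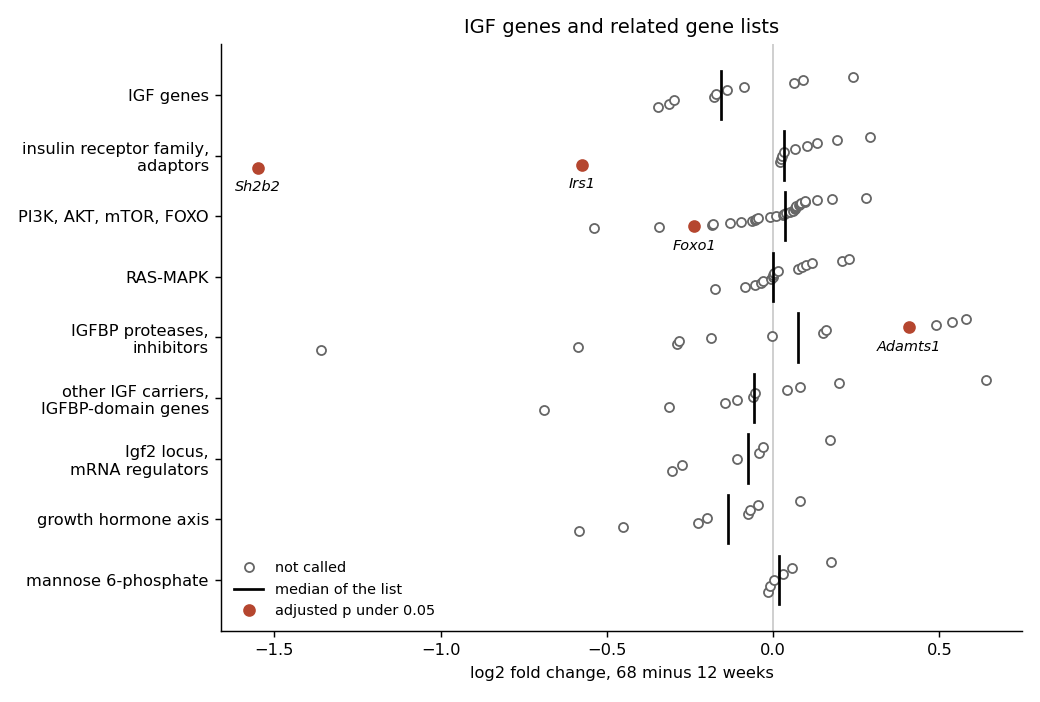
Log2 fold change, 68 minus 12 weeks (horizontal axis), of each tested gene in the IGF set and in 8 related lists (rows); filled points passed the edgeR adjusted p of 0.05 and vertical bars are list medians. The IGF row holds no filled point and has a median of -0.16, and the 4 filled points are Sh2b2, Irs1, Foxo1 and Adamts1.

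The 68-week H3K27me3 list linked 6 of the 108 genes to regions, and the 12-week list 1 of 108. Of all tested genes these lists linked 3.46% at 68 weeks and 1.44% at 12 weeks, while the 108 include genes that were not tested. The 6 were Ccn3, Deptor, Htra1 and all 3 Igf2 mRNA-binding protein genes, Igf2bp1 (4 regions), Igf2bp2 and Igf2bp3 (5 regions). One Igf2bp3 region scored 11.6 in the authors' list, at the 99.4th percentile. RNA of Igf2bp3 was low at both ages, at 0.791 ± 0.248 CPM at 68 weeks and 0.804 ± 0.136 CPM at 12 weeks (SD, n = 4 each), and Igf2bp1 did not pass the filter on low counts.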

How the data were processed

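The 10 genes and the gene lists were chosen with earlier results of these data known. The deposited RNA values are raw counts, whole numbers of reads for each gene, as their values and headers show. MACS3 3.0.0b1, Picard 2.26.2, SAMtools 1.14, Bowtie2 2.4.2, Trim Galore 0.6.5, DESeq2, Subread 1.5.2 with featureCounts, STAR 2.5.2b, Trimmomatic 0.36 and mm10 are named in the submitters' processing notes, with no role or order. The sources used here do not give how counting treated strand and multiply mapped reads. The 8 per-library files were identical to the series table. The deposited region lists hold positions, linked genes and a score that the authors call enrichment, with no stated scale. There is 1 list per age, built from that age's CUT&RUN libraries per the labels.

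Counts were tested with the quasi-likelihood test of edgeR 4.0.16 in R 4.3.3, with TMM scaling, filterByExpr, age alone in the model and Benjamini-Hochberg adjustment over 15947 genes at 0.05, which gave 256 genes higher and 195 lower at 68 weeks. CPM use the TMM-scaled library size, and RPKM divide CPM by the exonic length in kilobases. The approximate SE divides the absolute log2 fold change by the root of the F statistic. DESeq2 1.42.0, other scalings, no filter, marker covariates, a replicate block and leaving out each library were alternatives. Named genes are all 10 members, the called genes of each related list with the 2 smallest p-values there, and the 3 genes most like the 2 members of smallest p. Some genes that this rule names are not reported here. Regions were assigned to genes only by the authors' own links.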

Additional observations from a re-analysis of the deposited data

Results flagged for a closer look

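Of 72 groups of 4 libraries examined for a single value far from the other 3, 5 had one, where chance gives about 1 in 20. Igfbp5 in 12-week replicate 4 was 538 CPM, against 405 to 418 CPM in the other 12-week hearts. The Igf2 to Igf1 ratio of RPKM in 12-week replicate 3 was 2.69, against 4.36 to 4.59 in the others of that age. Adamts1 in 68-week replicate 4 was 101 CPM, against 80.0 to 80.8 CPM in the others. H19 in 68-week replicate 1 was 94.0 CPM, against 48.8 to 50.8 CPM in the others, and H19 in 12-week replicate 4 was 74.4 CPM, against 45.8 to 49.2 CPM.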

How the results depend on the processing

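No member was called under any of the 16 alternatives, higher or lower. Within a library the per-length order could not differ on the TPM scale, which rescales all genes of a library alike. The order of the means was the same in TPM as in RPKM, and it differed in CPM. Genes called over the whole table, 256 higher and 195 lower at 68 weeks, came to 555 and 446 with DESeq2, 112 and 48 with the replicate block, 63 and 16 with airway markers in the model, 2 and 0 with adipocyte markers in the model, and 10 and 23 in the 4 libraries with few airway transcripts (68-week replicates 1, 2 and 4 against 12-week replicate 4, the lone 12-week heart being assumed to vary like the others). The adipocyte score did not overlap between the ages, so with it in the model adipocyte markers and age cannot be told apart. Leaving out 1 library gave 117 to 209 higher and 52 to 154 lower. Calls in the 8 related lists, 1 higher and 3 lower, came to 4 and 6 with DESeq2, 3 higher with no filter on low counts, 1 lower with the replicate block, and 0 and 0 with airway markers, with adipocyte markers and in the 4 libraries. Leaving out 1 library gave 0 to 1 higher and 0 to 2 lower.

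Reversed log2 fold changes with adipocyte markers in the model were -0.47 for Igfbp2, -0.043 for Igfbp4, 0.32 for Igfbp5, 0.038 for Igfbpl1 and -0.29 for Plaur. For Igfbp2 the log2 fold change was also 1.17 with airway markers in the model. It was 3.16 in the 4 libraries, where 12-week replicate 4, with 3 counts, was the only 12-week library. Reversed values in the 4 libraries were -0.031 for Igfbp4, 0.16 for Igfbp7 and -0.17 for Gnptg, and with library size alone -0.0012 for Gnptg. Leaving out 1 library took Igfbp2 from -0.13 to 0.59 and Igfbp5 from -0.29 to 0.036, with reversals for Igfbp2 without 12-week replicate 4 (-0.13) and for Igfbp5 without 68-week replicate 2 (0.0052), 68-week replicate 4 (0.036) and 12-week replicate 4 (0.020). The cause of these changes was not tested.

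Shares of binding protein RNA depend on dividing by length. In CPM they were 0.155% for Igfbp2 at 68 weeks, and at 68 and 12 weeks 21.4 and 19.1% for Igfbp4, 56.9 and 57.8% for Igfbp5, 2.78 and 3.29% for Igfbp6, and 16.3 and 17.1% for Igfbp7. The ligand to binding protein ratio in CPM was 0.127 at 68 weeks and 0.15 at 12 weeks, since exonic lengths differ.

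Same-numbered libraries of the 2 ages did not pair: their deviations from the age means correlated at -0.243, -0.0411, 0.0406 and 0.33 for replicates 1 to 4, and only replicate 4 matched its own number best. The replicate block called none of the 10 members, with adjusted p of 0.0829 for Igf1. The median log2 fold change of all genes was -0.01 as reported and -0.07 with library size alone. Igfbp2 had 3 to 51 counts per library and a biological coefficient of variation of 0.562, against a common value of 0.139.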

Other observations

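Igf2 and Igfbp5 were each highest in the same 2 libraries, 68-week replicate 1 and 12-week replicate 4. Of all tested genes, 4.23% (675 of 15947) had these 2 as their highest libraries. Because H19 and Plagl1 did the same, 18 imprinted genes or genes of that network were then listed after these values were seen, so the count carries no test. Of the 16 tested, 4 had the same 2 highest libraries, namely Igf2, H19, Plagl1 and Dcn. Plagl1 measured 16.4, 10.7, 10.4 and 9.52 CPM at 68 weeks, against 14.2, 12.9, 13.4 and 17.5 CPM at 12 weeks. In the same list, Meg3, the imprinted noncoding RNA of the Dlk1 locus, fell to 2.58, 3.39, 3.42 and 3.12 CPM at 68 weeks, against 6.69, 5.85, 6.33 and 5.23 CPM at 12 weeks (log2 fold change -0.95; edgeR adjusted p = 0.00684). Slc38a4, an imprinted amino acid transporter gene, fell to 9.4, 8.29, 7.96 and 9.13 CPM at 68 weeks, against 12.5, 16.2, 15.5 and 18.8 CPM at 12 weeks (log2 fold change -0.85; edgeR adjusted p = 0.0084). In both genes the ages did not overlap, as in every called gene, and each call was kept when any 1 library was left out. These fits were chosen after seeing the data. With adipocyte markers in the model neither was called by edgeR, at -0.88 for Meg3 (adjusted p = 0.492) and -0.95 for Slc38a4 (adjusted p = 0.464). The adipocyte score did not overlap between the ages, so its part and that of age cannot be told apart there. With airway markers in the model Meg3 was at -0.80 (adjusted p = 0.0509) and Slc38a4 at -1.03 (adjusted p = 0.00693). In the 4 libraries with few airway transcripts the adjusted p was 0.323 for Meg3 and 0.066 for Slc38a4.

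Across the 8 libraries, 80 relations of a member to a cell type marker score were computed and none passed Benjamini-Hochberg adjustment. The permutations did not keep the 2 ages apart. The largest r was that of Igfbp7 with smooth muscle and pericyte markers (Pearson r = 0.938, exact permutation p = 0.003, adjusted p = 0.12, Spearman rho = 0.738, exact permutation p = 0.0458). It was 0.484 without the 2 libraries farthest from the median score, a step that also narrows the range of the score. Within the 4 libraries of each age its r was -0.379 at 68 weeks and 0.992 at 12 weeks, so the relation was seen at 12 weeks only. Igf1r and fibroblast markers, whose sums were lower at 68 weeks without overlap, had r = 0.901 (exact permutation p = 0.00481, adjusted p = 0.128, rho = 0.786, exact permutation p = 0.0279), and 0.578 without 2 libraries. Within ages that r was 0.931 at 68 weeks and 0.209 at 12 weeks. Igfbp6 and mesothelial markers had r = 0.865 (exact permutation p = 0.00193, adjusted p = 0.12, rho = 0.833, exact permutation p = 0.0154), and 0.648 without 2 libraries. Within ages that r was 0.868 at 68 weeks and 0.612 at 12 weeks. The part of these cells in the levels of these genes was not tested.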
